A study of Sus scrofa with 6 samples.

Results

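The circular RNAs (circRNAs) of 3 solute carrier host genes, SLC38A10, SLC9B1 and SLC4A4, were followed across boar testis before and after sexual maturity. All 23 circRNAs that the table assigned to these genes were taken, out of 4350 circRNAs in all: 2 of SLC38A10, 7 of SLC9B1 and 14 of SLC4A4. The hosts were chosen by the contrast between the groups, because 1 circRNA of each was among those with the smallest p in that contrast. These 3 index isoforms were circRNA12278 of SLC38A10, ranked 5 of the 46 circRNAs called higher in adults, circRNA10360 of SLC9B1, ranked 1 of the same 46, and circRNA10039 of SLC4A4, ranked 3 of the 65 called lower. The differences between the groups given below for these 23 circRNAs therefore describe what selected them. Fitted values and calls are given as part of that description, with no p-value and as no support.

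Testes came from untreated Landrace boars, 3 aged 30 days (Piglet-D30, labelled Young_D30) and 3 aged 210 days (Adult-D210) with normal spermatogenesis, and 1 testis of each boar gave 1 library. Ribosomal and linear RNAs were removed before sequencing, and each circRNA was measured by its back-splice reads, the reads that join the end of an exon to the start of the same or an earlier exon. Whole testis was used, so fewer cells of a type and less circRNA per cell cannot be told apart.

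A circRNA forms when the splicing machinery joins a downstream splice donor to an upstream acceptor, and 1 gene can give several circular isoforms that differ in the exons they hold. The 3 hosts encode membrane transporters. SLC38A10 belongs to a family of sodium-coupled transporters of neutral amino acids. SLC9B1 belongs to the sodium/hydrogen exchangers and is known for its expression in testis and sperm. SLC4A4 encodes the electrogenic sodium bicarbonate cotransporter, which moves bicarbonate across epithelial membranes, and bicarbonate is a signal for sperm activation.

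The table held 33091, 18445 and 18618 back-splice reads in Piglet-D30 replicates 1 to 3 and 23583, 14305 and 12701 in Adult-D210 replicates 1 to 3. Levels are given as SRPBM, the authors' scaling of reads to mapped reads and read length, in which 1 read was worth between 0.136 and 0.178. Piglet-D30 replicate 1 held a read of every one of the 2552 exonic circRNAs in the table, while the other libraries held reads of 1004 to 1247, so an isoform seen only elsewhere was not analysed here. All 23 circRNAs of the 3 hosts were exonic, and 6 of them (2 of SLC9B1 and 4 of SLC4A4, with 2 to 4 reads each) were read in Piglet-D30 replicate 1 alone. Among testis cell markers, 1 of 14 Sertoli, 2 of 9 Leydig, 1 of 12 spermatogonial and 5 of 30 meiotic and spermatid genes were hosts in this table, and 0 of 6 blood and 0 of 5 epididymal genes were. Summed circRNA levels of the meiotic and spermatid hosts ranged from 2.46 to 6.42 SRPBM in piglets and from 3.14 to 14.2 in adults, those of the Leydig hosts from 0.614 to 2.14 and from 1.63 to 2.31, those of the Sertoli host GATA4 from 0 to 1.25 against 0, and those of the spermatogonial host KIT from 0 to 0.614 against 0. Of the 5 tested circRNAs of the meiotic and spermatid hosts, 3 were fitted as higher in adults and 2 as lower. The lower ones were both of MOV10L1, ciRNA125 (log2 fold change -4.86) and ciRNA126 (-0.66), and neither was called. Called higher were 2, both of IQCG, a gene of the sperm flagellum, against 3.43% of all tested circRNAs. Of these IQCG calls, circRNA11760 was not called with mapped reads as library size and was called in 2 of 6 fits without 1 library. The part of cell composition in the results on the 3 transporters was not tested.

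The sequences of the junctions are not shown, and the isoforms are given by their position on the assembly named in the submitters' processing notes, Sscrofa10.2, all on the plus strand. Exons are numbered within each host from the first exon at which any listed circRNA starts. The SLC38A10 isoforms (transcript ENSSSCT00000031734) were circRNA12278 at chr12:1401699-1403815, with exons 6 to 9, and circRNA12277 at chr12:1377236-1403815, with exons 1 to 9. The main SLC9B1 isoforms (transcript ENSSSCT00000010034) were circRNA10360 at chr8:127091752-127096676, with exons 7 to 9, circRNA10359 at chr8:127091752-127097642, with exons 7 to 10, and circRNA10354 at chr8:127051429-127054470, with exons 1 and 2. The leading SLC4A4 isoform (transcript ENSSSCT00000009797), circRNA10039, lay at chr8:71895225-71946859 and held exons 1 to 6.

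**Figure D1:**
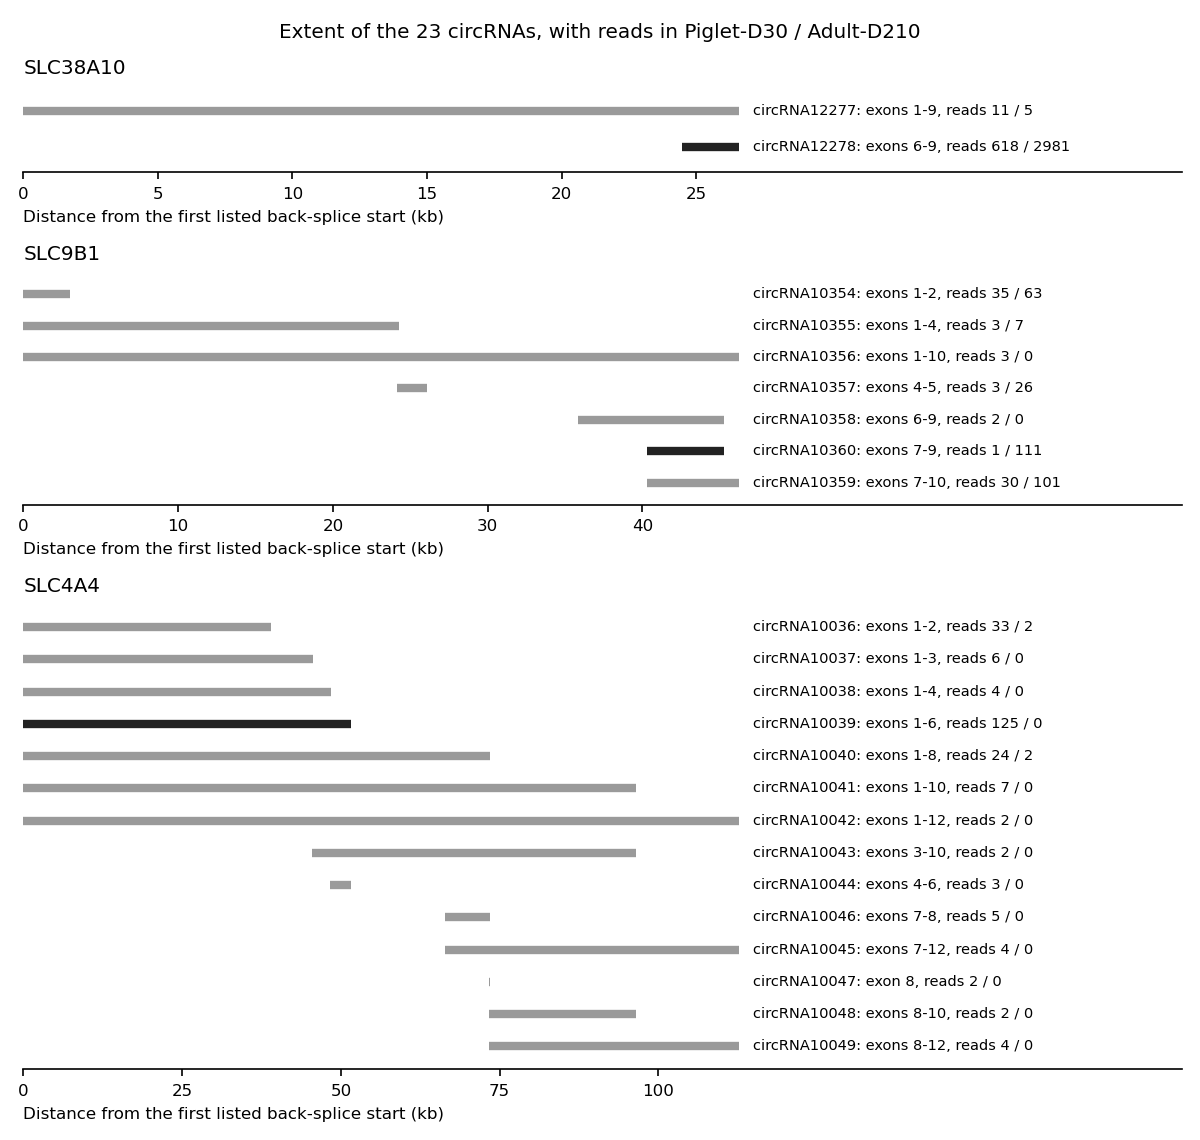
Extent of the 23 circRNAs of SLC38A10, SLC9B1 and SLC4A4, drawn as bars against the distance in kb from the first listed start of each host, with the index isoforms in black. The exons held and the summed reads of the 3 Piglet-D30 and the 3 Adult-D210 libraries stand beside each bar. SLC9B1 circRNA10360 and circRNA10359 share a start, and 7 of the 14 SLC4A4 isoforms start at exon 1.

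The host genes differed in direction. Summed over all listed isoforms, SLC38A10 and SLC9B1 circRNAs were higher in adults, by 4.05-fold and 3.48-fold in mean SRPBM, and SLC4A4 circRNAs were 68.2-fold lower. The summed levels of the groups did not overlap for any host, but for SLC38A10 the highest piglet (66.6 SRPBM) was close to the lowest adult (68.4 SRPBM). How often groups did not overlap over all hosts was not counted. The hosts were chosen on this contrast, so nothing is read from the lack of overlap. By edgeR calls, a different measure, 8.28% of all tested circRNAs were called in either direction. The 3 hosts also differed in how their listed isoforms contributed. Of the 2 listed SLC38A10 isoforms, 1 made up nearly all reads at both ages. In SLC9B1, circRNA10360 took a larger share of the listed reads in adults. SLC4A4 had many isoforms in piglets and 4 reads in all in adults.

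SLC38A10 circRNA12278 had 371, 117 and 130 reads in piglets and 1701, 779 and 501 in adults. All adult libraries lay above all piglet libraries, although the lowest adult (68.4 SRPBM) was close to the highest piglet (66.2 SRPBM). Mean levels were 34.7 ± 27.3 SRPBM (SD, n = 3) in piglets and 142 ± 82.0 (SD, n = 3) in adults, and replicate 1 was the highest of its group at both ages. As a share of the back-splice reads of the library the groups lay further apart, with 1.12%, 0.634% and 0.698% in piglets against 7.21%, 5.45% and 3.94% in adults. With 3599 reads in all it was the most abundant circRNA of the table, ranked 7, 22 and 19 in the piglet libraries and 1 in each adult library. The fitted log2 fold change from edgeR was 2.59 (SE 0.36), which describes the contrast it was selected on.

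The other SLC38A10 isoform, circRNA12277, ends at the same exon but starts 5 exons earlier and spans 26580 nt against 2117 nt. It had 2, 2 and 7 reads in piglets and 4, 1 and 0 in adults, so the groups overlapped at levels of a few reads. Its share of the host's reads was 0.536%, 1.68% and 5.11% in piglets and 0.235%, 0.128% and 0% in adults, and the 0 of 501 reads in Adult-D210 replicate 3 allows up to 0.761% by the 95% Wilson interval. The shares of the groups did not overlap, but they rest on few reads and their intervals did overlap. That of Piglet-D30 replicate 1 ran from 0.147% to 1.93% and that of Adult-D210 replicate 1 from 0.0913% to 0.602%. The mean share of circRNA12278 was 97.6% ± 2.38 in piglets and 99.9% ± 0.117 in adults (SD, n = 3 each). This gap of 2.32 percentage points came to 0.987 without Piglet-D30 replicate 3. The fitted log2 fold change of circRNA12277 was -0.83 (SE 1.18), and across the 6 libraries it did not follow circRNA12278 (Pearson r of -0.37 on the log2 scale after TMM, a description over libraries that share the age contrast).

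**Figure D2:**
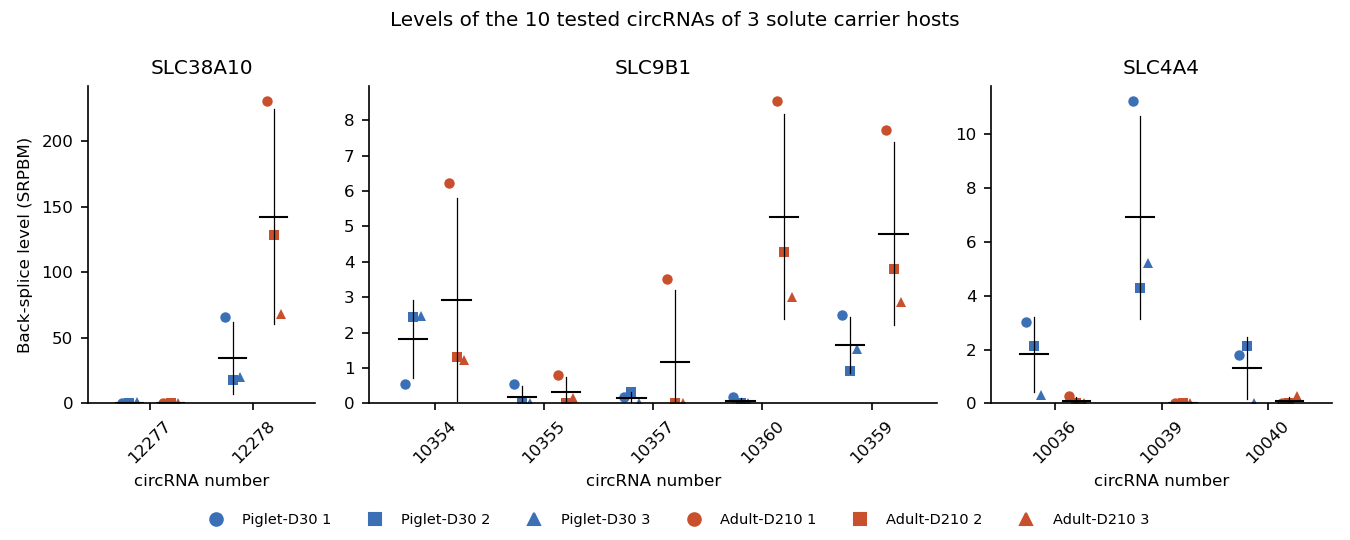
Level in SRPBM of the 10 circRNAs whose reads summed to 10 or more, by host and by circRNA number. Symbols are single libraries (blue Piglet-D30, orange Adult-D210), lines are group means and vertical bars are 1 SD, drawn down to 0 at the lowest. SLC38A10 circRNA12278 reaches 231 SRPBM in an adult library, SLC9B1 circRNA10360 stands above circRNA10359 in mean only in adults, and the SLC4A4 isoforms stand at or near 0 in adults.

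In SLC9B1 the isoforms made up different shares at the 2 ages. The index isoform circRNA10360 had 1, 0 and 0 reads in piglets and 63, 26 and 22 in adults, and its levels in adults were 8.54, 4.28 and 3.01 SRPBM. It was thus at or near the limit of detection in every piglet library and present in every adult library. Over pooled reads, adults were 99.8-fold higher, with a 95% counting interval from 17.5 to 3975 because the piglet total was 1 read. Among the 1341 tested circRNAs, 15 (1.12%) had at most 1 piglet read, and 0 of these had more adult reads than circRNA10360. As circRNA10360 was chosen by its small p in this contrast, its place restates that choice. An exonic circRNA without a piglet read could not be among the 15, since none is in the table. The single piglet read was in replicate 1, the library in which all listed exonic circRNAs have a read.

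Its partner circRNA10359 starts at the same exon and holds 1 exon more, exon 10 (chr8:127097506-127097642, 137 nt), which lies behind an intron of 829 nt. It had 14, 6 and 10 reads in piglets and 57, 23 and 21 in adults, which is 1.65 ± 0.797 against 4.80 ± 2.58 SRPBM (SD, n = 3 each), with every adult library above every piglet library. Of the reads of the pair, circRNA10360 took 6.67% (1 of 15), 0% (0 of 6) and 0% (0 of 10) in piglets, with 95% Wilson intervals that reach up to 29.8%, 39% and 27.8%. In adults it took 52.5% (63 of 120), 53.1% (26 of 49) and 51.2% (22 of 43), with intervals from 43.6% to 61.2%, 39.4% to 66.3% and 36.8% to 65.4%. The 3 adult values lay close together, but their intervals are wide enough to hide differences between boars. Each adult interval includes an equal split, so the counts do not settle which of the pair leads in adults. No piglet interval reached the value of any adult library. Pooled over libraries, the end at exon 9 was used in 3.23% of the pair's reads in piglets (1 of 31, interval 0.572% to 16.2%) and in 52.4% in adults (111 of 212, interval 45.7% to 59.0%), where the intervals cover counting error only. Across the 6 libraries the pair varied together (Pearson r 0.97 on the same scale, a description over libraries that share the age contrast).

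The third main SLC9B1 isoform, circRNA10354, comes from the other end of the listed region and shares no exon with the pair. It had 3, 16 and 16 reads in piglets and 46, 8 and 9 in adults, and the groups overlapped. Adult-D210 replicate 1 held most of its adult reads, and the fitted log2 fold change of 0.97 (SE 0.66) went to 0.08 without that library. Its share of the host's reads was 11.1%, 66.7% and 61.5% in piglets and 23.2%, 14% and 17.0% in adults. It was the leading SLC9B1 isoform in Piglet-D30 replicates 2 and 3, whereas circRNA10359 led in Piglet-D30 replicate 1 with 14 of 27 reads.

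The remaining SLC9B1 isoforms were minor. circRNA10357 (exons 4 and 5) had 1, 2 and 0 reads in piglets and 26, 0 and 0 in adults, so that its adult level came from replicate 1 alone, and the pooled ratio was 7.79 (counting interval 2.39 to 40.2). circRNA10355 (exons 1 to 4) had 3, 0 and 0 against 6, 0 and 1 reads, a pooled ratio of 2.1 whose counting interval from 0.479 to 12.6 includes no change. circRNA10356 (exons 1 to 10) and circRNA10358 (exons 6 to 9), the latter ending at the same exon as circRNA10360, had 3 and 2 reads, all in Piglet-D30 replicate 1.

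By share of the host's reads, circRNA10360 was 1.23% ± 2.14 in piglets and 39.6% ± 7.08 in adults, circRNA10359 was 38.4% ± 13.4 against 36.3% ± 6.48, and circRNA10354 was 46.4% ± 30.7 against 18.1% ± 4.70 (SD, n = 3 each). The share of circRNA10359 thus differed between ages by less than its spread between boars, and that of circRNA10354 overlapped between the groups. Summed SLC9B1 levels were 4.82, 3.67 and 3.99 SRPBM in piglets and 26.8, 9.39 and 7.24 in adults. Adult-D210 replicate 1 stood well above the others, and the difference of 3.48-fold became 2.0-fold without it.

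**Figure D3:**
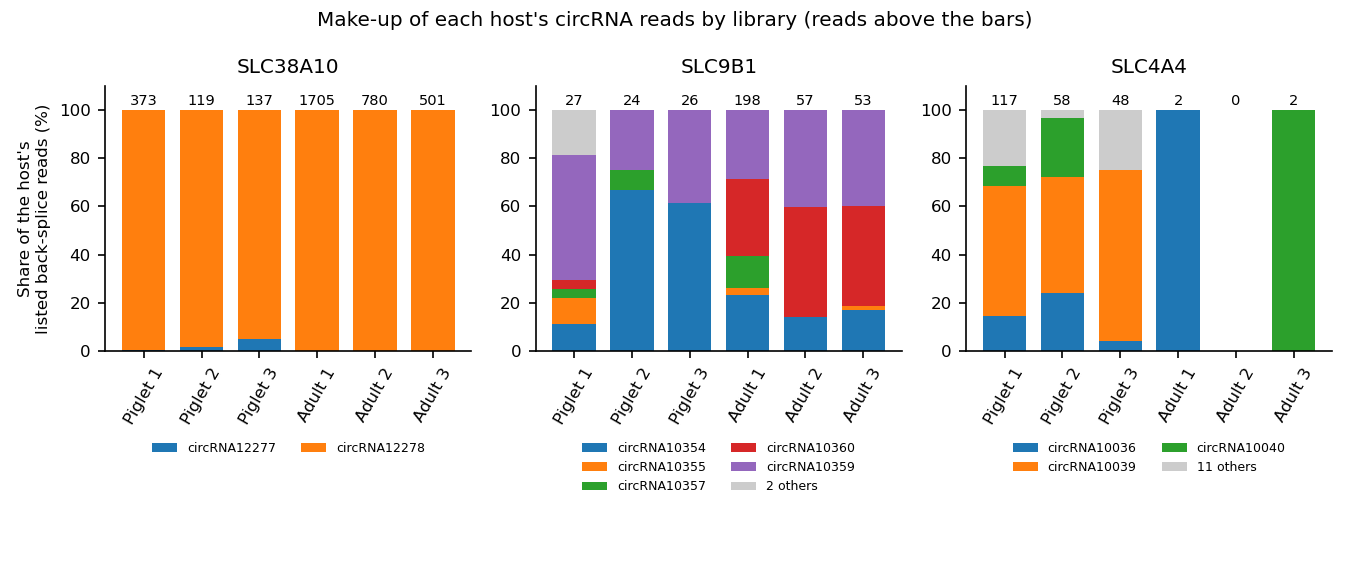
Share in percent of each host's listed back-splice reads taken by each circRNA, by library, with the host's reads above each bar and circRNAs under 10 reads in grey. The red part of the SLC9B1 bars, circRNA10360, makes up 39.6% on average in adults and 1.23% in piglets. SLC4A4 has 2, 0 and 2 reads in the adult libraries, so its adult bars carry no information on shares.

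SLC4A4 showed the opposite picture, with 14 listed isoforms in piglets and almost no reads in adults. The index isoform circRNA10039 had 63, 28 and 34 reads in piglets and 0 in each adult library, and its piglet levels were 11.2, 4.28 and 5.22 SRPBM. Taken against a floor of 3 reads in each adult library, it was at least 15.8-fold lower in adults. Of the tested circRNAs 120 (8.95%) had no adult read, and 0 of these had more piglet reads than circRNA10039. Every listed exonic circRNA has a read in Piglet-D30 replicate 1, which bears on this share. In addition, circRNA10039 was chosen by its small p in this contrast, so its place restates that choice. It held 53.8%, 48.3% and 70.8% of the host's reads in the piglet libraries, a mean of 57.7% ± 11.8 (SD, n = 3), and 0 of the 4 adult reads, which allows a share of up to 49.0%.

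The other SLC4A4 isoforms with at least 10 reads also start at exon 1. circRNA10036 (exons 1 and 2, chr8:71895225-71934149) had 17, 14 and 2 reads in piglets and 2, 0 and 0 in adults. circRNA10040 (exons 1 to 8, chr8:71895225-71968747) had 10, 14 and 0 reads in piglets and 0, 0 and 2 in adults, and was the only one of these 3 isoforms whose groups overlapped in SRPBM, although the lowest piglet and the highest adult library of circRNA10036 had 2 reads each. Pooled piglet levels were 18.4-fold higher than adult levels for circRNA10036 (counting interval 4.70 to 158) and 13.4-fold higher for circRNA10040 (counting interval 3.31 to 117), both resting on 2 adult reads. Piglet-D30 replicate 3 had few reads of both, although its circRNA10039 level was above that of replicate 2, so the make-up of SLC4A4 reads differed among piglets as well.

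The 11 remaining SLC4A4 isoforms had 2 to 7 reads each and none in adults. Of these, circRNA10044 (exons 4 to 6) shares its end with circRNA10039 and had 3 reads, and circRNA10037, circRNA10038, circRNA10041 and circRNA10042 share its start and had 6, 4, 7 and 2 reads. The smallest, circRNA10047, is exon 8 alone, with 272 nt. Exon 1 was the start of 7 isoforms with 205 reads, 90.3% of the host's reads, and exon 6 was the end of 2 isoforms with 128 reads, 56.4%. SLC4A4 circRNA reads are therefore marked more by a common start than by a common end, whereas both SLC38A10 isoforms share their end and the SLC9B1 reads fall on exon 7 (63.1%) and exon 1 (28.8%) as starts.

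Summed SLC4A4 levels were 20.9, 8.86 and 7.37 SRPBM in piglets and 0.271, 0 and 0.273 in adults. The adult values are those of 2, 0 and 2 reads, so the 68.2-fold difference in means carries a wide error, and the pooled ratio of 62.0 had a counting interval from 23.9 to 230. Leaving out 1 library at a time gave 44.7-fold to 91.2-fold. With 14 exonic circRNAs SLC4A4 ranked 18 of 659 exonic host genes in this table by number of isoforms, and SLC9B1 with 7 ranked 93, against a median of 2 per host. All 14 had a read in Piglet-D30 replicate 1 by the make-up of the table, and 4 and 8 had one in Piglet-D30 replicates 2 and 3.

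Of the 23 circRNAs, 10 reached the 10 reads needed for the edgeR fit, and 13 did not. In that fit 3 of the 10 were called higher in adults, against 3.43% of all tested circRNAs, and 1 was called lower, against 4.85%. The hosts were selected on this contrast, and nothing is read from these counts. The calls were circRNA12278, circRNA10360 with a log2 fold change of 6.57 (SE 0.84), circRNA10359 with 2.01 (SE 0.47) and circRNA10039, whose fitted value of -8.20 depends on the prior count because its adult reads are 0. The call of circRNA10359 was lost with mapped reads as library size, without Piglet-D30 replicate 3 and without Adult-D210 replicate 1. All tested SLC9B1 isoforms were fitted as higher in adults and all tested SLC4A4 isoforms as lower. The median log2 fold change of all tested circRNAs was -0.42. It was -0.90 with mapped reads as library size, where 9 circRNAs were called higher and 68 lower in place of 46 and 65. Without Piglet-D30 replicate 1, in which every listed exonic circRNA has a read, it was -0.05 over 1046 tested circRNAs. In that fit 38 were called higher and 36 lower. The shares and the median over all tested circRNAs thus depend on that library.

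**Figure D4:**
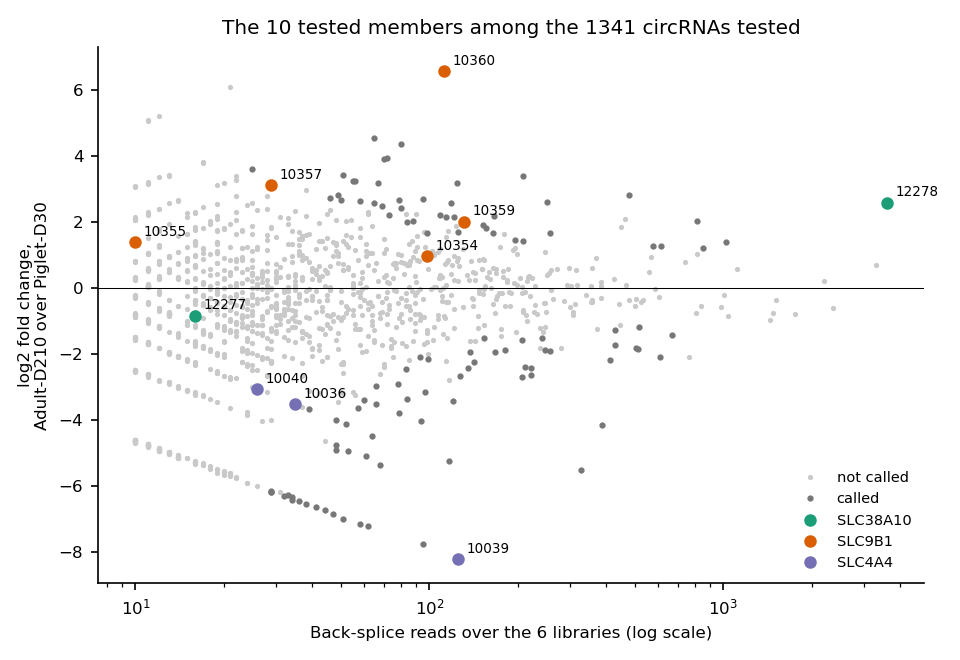
Fitted log2 fold change of Adult-D210 over Piglet-D30 against summed back-splice reads of all libraries (log scale) for the 1341 tested circRNAs, with called ones in dark grey and the 10 tested isoforms of SLC38A10, SLC9B1 and SLC4A4 in colour with their circRNA numbers. circRNA12278 stands at the right edge with 3599 reads, and circRNA10360 and circRNA10039 stand at the top and bottom at 6.57 and -8.20.

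The isoforms also differed in the introns beside them, which the choice of hosts did not use. SLC9B1 exon 1, where circRNA10354 but not the index isoform starts, follows an intron of 139550 nt. It is longer than that upstream of 99.3% of exonic circRNAs. SLC4A4 exon 1, where index isoform circRNA10039 starts, follows one of 34344 nt, longer than for 92.5%. The intron downstream of circRNA10039 has 14745 nt, longer than 84.6%. SLC38A10 circRNA12278 lies between introns of 18603 nt and 9322 nt, longer than 83.4% and 74.9%. SLC9B1 circRNA10360 and circRNA10359, in contrast, share an upstream intron of 4318 nt, below the median of 5504 nt over exonic circRNAs, and are followed by introns of 829 nt (longer than 7.39%) and 5588 nt (longer than 59.4%). The 23 circRNAs spanned a median of 26580 nt against 8725 nt over all exonic circRNAs, with a median of 4 exons in both sets. Isoforms of a host share starts, ends and introns, so these are not independent values.

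Other transporter genes were read from lists of genes outside the 3 hosts. Among other solute carriers, 24 genes were hosts of 44 circRNAs, and 19 circRNAs of 6 hosts were tested. Of these, edgeR called 0 higher and 2 lower (0 higher and 3 lower at an unadjusted p under 0.05, and 0 and 2 by DESeq2), against 3.43% called higher and 4.85% lower over all tested circRNAs. Of the 19, 3 had a positive and 16 a negative log2 fold change, and the median was -0.82 against -0.42 over all tested circRNAs. The median over all tested was -0.05 without Piglet-D30 replicate 1, and that of the list was not taken in that fit. Both calls were circRNAs of SLC25A26, the mitochondrial carrier of S-adenosylmethionine. Its circRNA11080 had 94, 41 and 60 reads in piglets and 19, 7 and 0 in adults (log2 fold change -2.62, SE 0.57, edgeR adjusted p = 0.00976), and the groups did not overlap. Its circRNA11079 had 57, 30 and 33 against 14, 12 and 7 reads (log2 fold change -1.50, SE 0.44, edgeR adjusted p = 0.0444), and this call was lost with mapped reads as library size, without TMM and in all 6 fits without 1 library. The call of circRNA11080 was lost in 3 of those 6, namely without Piglet-D30 replicate 1, without Piglet-D30 replicate 3 and without Adult-D210 replicate 2. SLC33A1, the acetyl-CoA transporter of the endoplasmic reticulum, gave the most abundant circRNA of the list, circRNA11466, with 69, 76 and 61 reads against 29, 45 and 62, and its log2 fold change of -0.20 (SE 0.40) did not pass.

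Among 50 acid-base and sperm ion transport genes, 6 were hosts, and of 12 tested circRNAs edgeR called 0 (2, both lower, at an unadjusted p under 0.05, and 0 by DESeq2), against 8.28% called in either direction over all tested circRNAs. Of the 12, 10 were fitted as lower, and the median log2 fold change was -0.97 against -0.42 over all tested. Here too, the median of the list was not taken without Piglet-D30 replicate 1. The 12 came from only 3 hosts, so they are not independent values. Those of SLC4A7 were also counted among the other solute carriers. SLC4A7, a sodium bicarbonate cotransporter of the same family as SLC4A4, had circRNA10687 with 27, 12 and 22 reads in piglets and 0, 7 and 6 in adults (log2 fold change -1.80, SE 0.75, edgeR adjusted p = 0.151). Its circRNA10682 had 14, 14 and 5 against 2, 0 and 5 reads, so that the lowest piglet and the highest adult library had 5 reads each. The cation channel gene PKD2 gave circRNA10404, with 92, 80 and 57 against 16, 35 and 0 reads (log2 fold change -1.81, SE 0.72, edgeR adjusted p = 0.158). Among 38 amino acid transport genes 3 were hosts, and the 3 tested circRNAs all came from SLC25A26. They included both calls above, against 4.85% called lower over all tested circRNAs. Both were already counted among the other solute carriers. With 1 host these are not independent values, and nothing is read from this count.

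The circRNAs of other hosts whose levels ran closest to the index isoforms were ranked by Pearson r on the log2 scale after TMM over the 6 libraries, a description over libraries that share the age contrast. For circRNA12278 they were ZC3H14 circRNA1056 (r = 0.996), LEF1 circRNA10329 (0.995) and circRNA10691 of ENSSSCG00000011222 (0.986). For circRNA10360 they were BAIAP2 circRNA12280 (0.996), with 18, 12 and 12 reads in piglets and 106, 61 and 43 in adults, circRNA10691 (0.991) and circRNA1091 of ENSSSCG00000002436 (0.985). circRNA10691 was thus near both SLC isoforms that were higher in adults. For circRNA10039 they were LRIG1 circRNA11085 and DLG1 circRNA11714, which had the same 5, 3 and 3 piglet reads and no adult read (0.999 each), and EPHA3 circRNA11955 (0.998), with 17, 10 and 9 piglet reads and no adult read.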

How the data were processed

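Per the labels and the study's methods, the authors mapped reads with TopHat2, found back-splice reads by means of TopHat-Fusion and CIRCExplorer2, and deposited their raw count beside SRPBM, a signal scaled to mapped reads and read length. SRPBM rests on all mapped reads and the fit on back-splice totals, so the same reads can differ more on one scale than on the other.

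Counts were fitted with edgeR 4.0.16 (R 4.3.3: TMM, robust quasi-likelihood F test) for the 1341 circRNAs whose reads summed to 10 or more. A call needed a size of 1 or more on the log2 scale and a Benjamini-Hochberg adjusted p under 0.05. The fit was tested on simulated data. Shares carry 95% Wilson intervals, ratios resting on few reads (at most 4 in the lower group) an exact counting interval, and a group at 0 a floor of 3 reads per library. Intervals and floors cover counting error only. Python 3.11.15 with SciPy 1.17.1 was used. DESeq2 1.42.0, other scalings and filters, a replicate block and leaving out each library were alternatives, and 1 (the older quasi-likelihood form) was added after seeing the data.

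The circRNAs named are the index isoforms, all isoforms of the hosts (individually at 10 or more reads, or where they share an end with an index isoform), the 3 closest circRNAs of other hosts per index isoform, and of each transporter list those called or the 3 with the most reads. Others of 2 to 7 reads were named after their values were seen. The members and lists were chosen with earlier results of these data known. Exon numbers were derived from exon counts and flanking introns of the deposited rows. Libraries are separate boars, and counts rest on the part of the circRNAs in the table analysed.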

Additional observations from a re-analysis of the deposited data

How the results depend on the processing

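Of the alternatives to the 8 summary results, 83 kept the direction and stayed within set limits on the change in a count or size. In 4 the calls over the whole table fell below those limits, and in 2 a size moved by more than its spread between boars. Of the 83, only 12 concern the calls over the whole table. The others concern the 3 hosts, which were selected on this contrast, so they are no support. Some could not change: circRNA10039 has 0 adult reads, so its share difference stayed the same whichever adult library was left out. The limits are wide enough to hold the 77 calls found with mapped reads as library size. The number of circRNAs called over the whole table, 111, ranged from 39 to 81 when 1 library was left out (42 without Piglet-D30 replicate 3, 39 without Adult-D210 replicate 1 and 59 without Adult-D210 replicate 2). With a replicate block 33 were called and 3 of the 4 calls among the 3 hosts held, the call of circRNA10359 being lost, as were both SLC25A26 calls. Same-numbered piglet and adult libraries did not deviate together (r = 0.05, -0.01 and -0.03). Counting error also weakens r, so this does not exclude a shared preparation, which no label names. The number of isoforms called among the 3 hosts was 3 or 4 throughout, and circRNA10359 was the only call lost. The 3 index isoforms were selected on this contrast, so their calls in refits of the same libraries are no support. When 1 library was left out, the log2 ratio of summed levels between ages went from 2.02 to between 1.48 (without Adult-D210 replicate 1) and 2.86 (without Piglet-D30 replicate 1) for SLC38A10 and from 1.80 to between 1.0 (without Adult-D210 replicate 1) and 2.12 for SLC9B1. For SLC4A4 it was -6.09, and -3.50 with 1 SRPBM added to each group mean, which weighs down a ratio against an adult mean below 1. The share of circRNA10039 was 57.7 percentage points lower in adults (-57.7), and -71.5 when isoforms under 10 reads were left out of the total. SLC4A4 shares in adults rest on 4 reads and SLC9B1 shares in piglets on 24 to 27 reads per library, which limits both.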
